A study of Mus musculus with 6 samples.

Results

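The genes described here code for 10 proteins of the nuclear lamina and inner nuclear membrane: Lmna, Lmnb1, Lmnb2, Lbr, Emd, Lemd3, Tmpo, Banf1, Sun1 and Sun2. They were taken by name, through their Entrez identifiers, from a table of 24467 genes, and all 10 were present and passed the filter on low counts that 14771 genes passed. The series holds 6 RNA-seq libraries from embryonic stem (ES) cells of the mouse. DKO clone 1 and DKO clone 2 lacked HP1 alpha (Cbx5) and HP1 beta (Cbx1), and a single F/F clone, which the labels call WT, was the control, with 2 libraries in each of the 3 groups. All cells were untreated and grown in medium with knockout serum replacement, LIF, the GSK3 inhibitor CHIR99021 at 3 µM and the MEK inhibitor PD184352 at 0.8 µM. Every group is 1 clone, so genotype and clone cannot be told apart, and the labels do not say whether paired libraries stem from different cultures.

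The lamina is a meshwork of A-type and B-type lamins under the inner nuclear membrane, where much of the heterochromatin of a mammalian nucleus is anchored. The lamin B receptor LBR, a membrane protein that binds lamin B and HP1, and lamin A/C act as tethers of peripheral heterochromatin in mouse cells, and lamin A/C is usually low in pluripotent cells. Proteins with a LEM domain bind the small DNA-bridging protein BAF, and SUN proteins join the lamina to the cytoskeleton through nesprins. HP1 proteins bind chromatin with methylated histone H3 and also bind LBR.

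The libraries held 24628872 to 34641560 counted reads over 17482 to 18174 detected genes. Expression is given as CPM, read counts scaled to the library total after TMM correction. Cbx5 averaged 198 ± 6.58 CPM in DKO libraries and 811 ± 2.96 CPM in control libraries, and Cbx1 45.7 ± 2.44 against 225 ± 2.88 CPM (SD, n = 4 and 2), in the direction of the labels in every library. Which exons were deleted is not stated in the labels, so what part of the remaining reads lies outside them is not known. Cbx3, the gene of the third HP1 protein, had 453 to 490.5 CPM in DKO and 321 to 344 CPM in control libraries (log2 change 0.48, edgeR adjusted p = 0.0021, and 0.0582 without control replicate 1). It lies on chromosome 6, and with genes centred on their chromosome's median its log2 change was 0.0030 (adjusted p = 0.986). The 8 ES cell markers, among them Pou5f1, Sox2 and Nanog, summed to 3805 to 3989 CPM in DKO and 3608 to 3732 CPM in control libraries, and 1 of the 8 rose, Nanog on chromosome 6 (log2 change 0.33, edgeR adjusted p = 0.0281, called in each clone too). Markers of other cells were low: 10 fibroblast and feeder genes summed to 5.25 to 7.23 CPM in DKO and 9.61 to 11.4 CPM in control libraries, with Twist2 at 0 in every library. Of these, 4 were tested, and Acta2 fell (log2 change -1.90, edgeR adjusted p = 0.0063) while the other 3 did not pass. The 7 primitive endoderm genes summed to 4.99 to 6.54 CPM in DKO and 7.07 to 8.83 CPM in control libraries. None of the 6 tested passed in DKO against control. Of these, 3 had an unadjusted p under 0.05 in edgeR, as had 3433 of all 14771 tested genes. Fewer cells of a type and less RNA per cell cannot be told apart in such bulk libraries, and the part of these markers in the values below was not tested.

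Set beside each other per kilobase of the deposited gene width, the 10 genes spanned a wide range of levels, and their order was led by Lmnb1. This gene of a B-type lamin had 156 CPM per kb in DKO and 155 CPM per kb in control libraries, above 98.0% of all tested genes in both genotypes. Lbr followed with 38.7 CPM per kb in DKO and 46.1 in control, and Tmpo, which codes for the LAP2 proteins, with 34.6 in DKO and 36.8 in control. Values of these neighbours overlapped across libraries. Banf1, the gene of BAF, had 28.2 CPM per kb in DKO and 29.8 in control. Next came Sun1 (22.2 in DKO and 18.3 in control), Emd (16.2 and 15.4) and Lmnb2 (15.7 and 15.1), and the ranges of Sun1 and Emd, and of Emd and Lmnb2, overlapped. Compared within each library, Sun1 lay above Emd in all 6, while the order of Emd and Lmnb2 differed between libraries. At the low end stood Lemd3 (6.98 CPM per kb in DKO and 7.91 in control), Lmna (4.71 and 5.22) and Sun2 (1.94 and 2.09), each clear of its neighbour in all 6 libraries. Sun2 lay above only 36.1% of tested genes in DKO and 37.2% in control libraries. Lmna, low among the 10, lay above 51.6% of tested genes in DKO and 54.2% in control, and Lemd3 above 60% and 63%. A deposited width that joins the exons of several isoforms lowers a per-length value, so the order holds for that width.

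**Figure D1:**
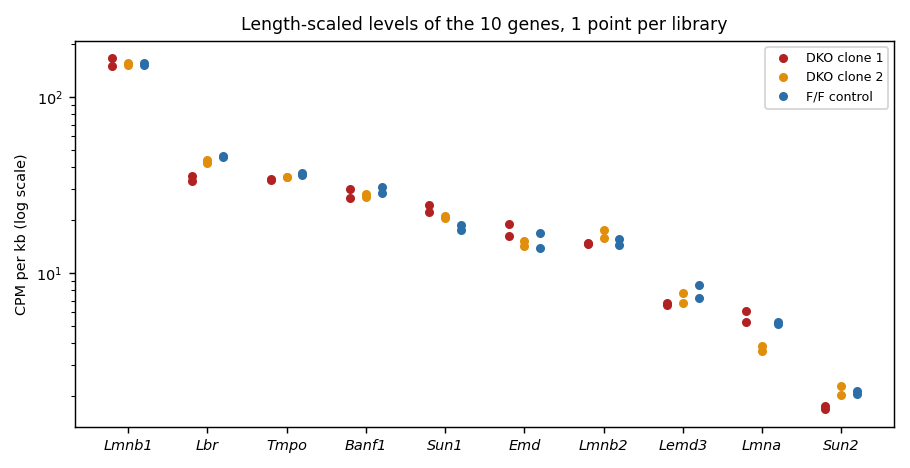
CPM per kb of gene width on a log scale for the 10 genes, in order of their mean, with 1 point for each library of DKO clone 1, DKO clone 2 and the F/F control. Lmnb1 lies above all others, and Lmna and Sun2 lie lowest.

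Within the lamins, Lmnb1 made up 88.4% ± 0.687 of the summed CPM per kb in DKO and 88.4% ± 0.692 in control libraries (SD, n = 4 and 2). Lmnb2 made up 8.90% ± 0.850 in DKO and 8.63% ± 0.598 in control. Lmna made up 2.83 and 3.56% in clone 1, 2.04 and 2.26% in clone 2, and 3.05 and 2.92% in the control. Among the SUN genes, Sun1 made up 91.9% ± 1.51 in DKO and 89.7% ± 0.173 in control libraries, and the 4 DKO values, from 90.3 to 93.6%, lay above the control values of 89.9 and 89.6%. The summed CPM of all 10 genes was 1351 to 1412 in DKO and 1412 to 1423 in control libraries.

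None of the 10 genes had a called change when the 4 DKO libraries, from 2 clones, were set against the 2 control libraries. A change is called here where the edgeR quasi-likelihood F test gave a Benjamini-Hochberg adjusted p under 0.05 over all tested genes, which was so for 8.69% of them (5.06% higher and 3.62% lower). At unadjusted p under 0.05 the count was 2 of 10, Sun1 and Lbr, and over all tested genes it was 3433 of 14771. DESeq2 called 1 of 10, Sun1, and limma-voom none. The log2 changes ran from -0.25 for Lbr to 0.28 for Sun1, with a median of -0.083, where the median of all tested genes was 0.00038. Values of the 4 DKO and 2 control libraries did not overlap for Sun1, Lbr and Tmpo, 3 of 10 genes, and for 33.8% of all tested genes.

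Each clone against the control gave other calls than both clones together. In clone 1, Lbr fell, Sun1 rose and 8 genes did not pass. In this comparison 6.47% of all tested genes were called lower and 8.79% higher. In clone 2, Lmna fell, while 9 did not pass. There, 7.08% of all tested genes were called lower and 7.89% higher, 15.0% in all, against 15.3% in clone 1. Between the clones, Lmna was lower and Lbr higher in clone 2 than in clone 1, where 6.30% of all tested genes were called, 3.77% lower and 2.53% higher. At unadjusted p under 0.05 in edgeR the count between the clones was 6 of 10: Lmna, Lbr, Sun1, Sun2, Emd and Lmnb2. Over all 14771 tested genes it was 3039. Against the control this count was 3 of 10 in clone 1 and 2 of 10 in clone 2, and 4270 and 4280 over all tested genes. Both clone comparisons share the control libraries, and the contrast of clone 2 with clone 1 is the test of whether they differ.

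**Figure D2:**
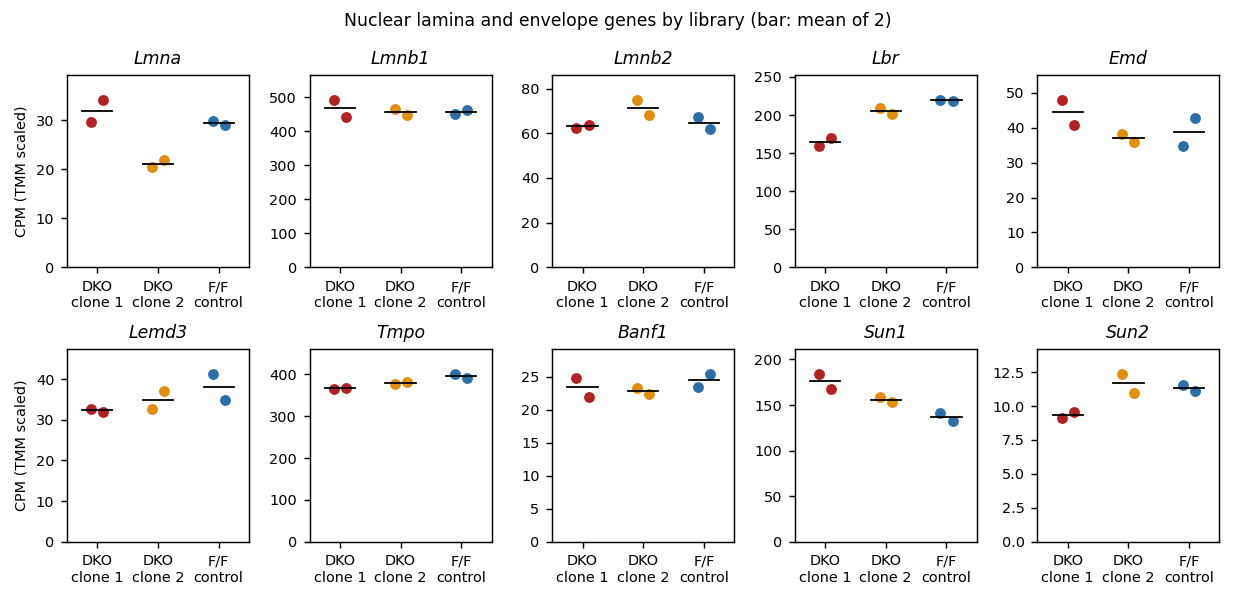
CPM of each of the 10 genes in the libraries of DKO clone 1, DKO clone 2 and the F/F control, with a bar at the mean of the 2 libraries of a group and each axis starting at 0. Lmna is lowest in clone 2, Lbr is lowest in clone 1, and Sun1 is highest in clone 1.

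The promoter windows of the 3 genes called in a clone are shown so that their base composition can be compared. They run from 250 bases before to 50 bases after a start site, in RefSeq sequence on GRCm38.p6, and of the 2 windows listed for Lmna and for Sun1 the more upstream is given. The Lmna window starts 6330 bases inside the gene span given below, whereas those of Lbr and Sun1 lie across the upstream end of theirs, so the compositions compare different positions. Capitals mark the GC box GGGCGG and the CCAAT box CCAAT on either strand, which do not overlap each other here.
Lmna, minus strand, chr3:88503303-88503602: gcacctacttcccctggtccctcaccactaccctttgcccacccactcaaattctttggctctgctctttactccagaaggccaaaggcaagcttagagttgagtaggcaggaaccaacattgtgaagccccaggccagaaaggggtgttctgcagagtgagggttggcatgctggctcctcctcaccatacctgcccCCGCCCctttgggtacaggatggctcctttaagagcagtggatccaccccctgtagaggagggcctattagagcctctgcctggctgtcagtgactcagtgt
Lbr, minus strand, chr1:181842352-181842651: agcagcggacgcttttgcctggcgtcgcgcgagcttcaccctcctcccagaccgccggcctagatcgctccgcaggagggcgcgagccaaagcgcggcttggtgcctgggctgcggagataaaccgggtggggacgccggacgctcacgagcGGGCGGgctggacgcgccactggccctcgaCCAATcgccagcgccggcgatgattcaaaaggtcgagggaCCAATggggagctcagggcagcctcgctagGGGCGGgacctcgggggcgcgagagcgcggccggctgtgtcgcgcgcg
Sun1, plus strand, chr5:139200387-139200686: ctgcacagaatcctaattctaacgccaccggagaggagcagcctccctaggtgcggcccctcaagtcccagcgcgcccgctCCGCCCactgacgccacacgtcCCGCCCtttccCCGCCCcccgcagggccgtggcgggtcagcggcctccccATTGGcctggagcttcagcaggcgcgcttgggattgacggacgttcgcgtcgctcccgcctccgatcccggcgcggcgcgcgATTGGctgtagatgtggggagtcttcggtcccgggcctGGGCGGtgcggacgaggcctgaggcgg

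The Lmna window held 1 CG dinucleotide, 1 GC box and no CCAAT box. The Lbr window held 42 CG dinucleotides, 2 GC boxes and 2 CCAAT boxes, and the Sun1 window 36, 4 and 2. The median of 32851 RefSeq windows of the same length was 7 CG dinucleotides, and 35.7% of them held a GC box and 37.4% a CCAAT box. Fewer CG dinucleotides than in the Lmna window were found in 5.43% of all windows, than in the Lbr window in 97.0% and than in the Sun1 window in 93.8%. Of the members, 9 had a window in the table, and the other 6 of these held 15 (Emd) to 45 (Lemd3) CG dinucleotides. Among these, the Tmpo window also lies inside the gene span, 9883 bases from its upstream end. These matches are descriptions of letters and not of sites in use.

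Lmna, the gene of lamin A and C (Entrez 16905, GRCm38 chromosome 3, 88481148 to 88509932), had 29.7 and 34.2 CPM in clone 1, 20.5 and 21.8 CPM in clone 2, and 29.9 and 29.0 CPM in the control, from 510 to 1027 reads a library. Both clone 2 libraries lay below the other 4, while clone 1 and the control overlapped. In clone 2 it was 0.718 times the control (95% interval 0.618 to 0.835, log2 change -0.48, SE 0.101, adjusted p = 0.0059 by edgeR), lower in 2 of 2 libraries. Its adjusted p was 0.0643 without clone 2 replicate 1. In clone 1 it was 1.09 times the control (0.938 to 1.26, adjusted p = 0.467). Clone 2 held 0.662 times the level of clone 1 (0.569 to 0.770, log2 change -0.60, SE 0.101, adjusted p = 0.0043), and without clone 2 replicate 1 the adjusted p of that difference was 0.0575.

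Chromosome 3, which carries Lmna, was shifted as a whole, with a median log2 shift of its 701 tested genes of 0.281 in clone 1 and 0.0887 in clone 2. Within 1 Mb on each side of Lmna, 71 tested genes had a median log2 change of 0.363 in clone 1, where 36 were called higher and 1 lower, and of 0.133 in clone 2, where 9 were called higher and 1 lower. The log2 change of Lmna, 0.12 in clone 1 and -0.48 in clone 2, lay above that of 6 of these 71 neighbours in clone 1 and of 5 in clone 2. For clone 2 against clone 1 the median of the 71 was -0.25, with 11 called lower and none higher, and Lmna lay above 8 of them. The part of this neighbourhood in the difference of Lmna between the clones was not tested. With each gene centred on the median of its chromosome, the log2 change of Lmna was -0.16 in clone 1 (edgeR adjusted p = 0.344) and -0.57 in clone 2 (adjusted p = 0.0034), and that of clone 2 against clone 1 was -0.40 (adjusted p = 0.0398).

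Some markers of other cells were also lowest in clone 2, and others were not. Acta2, a smooth muscle actin gene of the fibroblast list, had 2.19 and 2.30 CPM in clone 1, 0.883 and 1.01 CPM in clone 2, and 5.12 and 6.91 CPM in the control. It was called lower in clone 2 than in the control (edgeR adjusted p = 2.1e-05) and than in clone 1 (0.0191). It was also called lower in clone 1 than in the control (0.374 times, edgeR adjusted p = 6.9e-04). Dab2, of the primitive endoderm list, had 1.97 and 1.87 CPM in clone 1, 1.12 and 1.24 CPM in clone 2, and 2.39 and 3.53 CPM in the control, and was called lower in clone 2 than in the control (0.401 times, adjusted p = 0.0069). The other 3 tested fibroblast genes and 5 tested endoderm genes were not called in clone 2. For clone 2 against clone 1, 3 of the 4 tested fibroblast genes had a positive log2 change: Thy1 (1.04), Pdgfrb (0.53) and Col1a1 (0.19). Of the 6 tested endoderm genes, 2 had a positive one, Gata4 (0.31) and Pdgfra (0.30), and 4 a negative one. None of these positive changes was called. The part of these markers in the lower Lmna level of clone 2 was not tested.

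**Figure D3:**
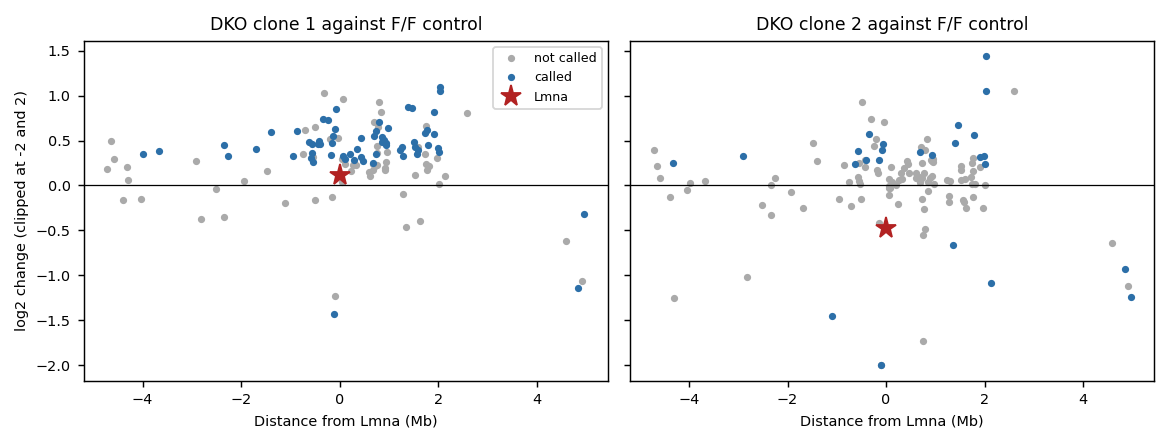
The log2 change against the F/F control of tested genes within 5 Mb of Lmna, in DKO clone 1 (left) and DKO clone 2 (right), by distance between gene starts in Mb, with values beyond -2 or 2 drawn at that limit. Most neighbours lie above 0 in clone 1, and Lmna (star) lies at 0.12 in clone 1 and at -0.48 in clone 2.

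Lbr (Entrez 98386, chromosome 1, 181815315 to 181842401), which also has a sterol reductase activity, had 159 and 169 CPM in clone 1, 209 and 201 CPM in clone 2, and 220.2 and 219 CPM in the control. All 4 DKO libraries lay below both control libraries, with clone 1 the lower of the clones. Lbr fell in clone 1 to 0.748 times the control (95% interval 0.678 to 0.825, log2 change -0.42, SE 0.0658, adjusted p = 7.8e-04 by edgeR), in 2 of 2 libraries. In clone 2 it was at 0.933 times the control (0.845 to 1.03, adjusted p = 0.342). Clone 2 held 1.25 times the level of clone 1 (1.13 to 1.38, log2 change 0.32, adjusted p = 0.0130). That difference was not called without clone 1 replicate 1 (adjusted p = 0.0905), without clone 2 replicate 1 (0.125) or without clone 2 replicate 2 (0.0688). Within 1 Mb on each side of Lbr, 16 tested genes had a median log2 change of -0.077 in clone 1, where 4 were called lower, and of -0.108 in clone 2, where 5 were called lower, and none was called higher in either. The 60 tested genes within 5 Mb had medians of -0.0083 in clone 1 and -0.023 in clone 2. The part of this neighbourhood in the fall of Lbr was not tested. With both clones together Lbr was at 0.840 times the control (0.717 to 0.985, unadjusted p = 0.0345 and adjusted p = 0.175 in edgeR's fit).

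The ratio of Lmna to Lbr per kilobase followed from these values and separated the 3 groups. It was 0.158 and 0.171 in clone 1, 0.0828 and 0.0918 in clone 2, and 0.115 and 0.112 in the control. Clone 1 therefore lay above the control and clone 2 below it. The ratio was formed after both genes' values were known and is given without a test.

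Sun1 (Entrez 77053, chromosome 5, 139200564 to 139249839), whose product spans the inner membrane and binds nesprins in the space between the membranes, had 184 and 168 CPM in clone 1, 158 and 153 CPM in clone 2, and 141 and 132 CPM in the control. The groups did not overlap, and every DKO library lay above both control libraries. Sun1 rose in clone 1 to 1.29 times the control (95% interval 1.16 to 1.43, log2 change 0.36, SE 0.0714, adjusted p = 0.0038 by edgeR). In clone 2 it was at 1.14 times the control (1.02 to 1.27, adjusted p = 0.0992), and the difference between clone 2 and clone 1 did not pass (log2 -0.17, 95% interval -0.33 to -0.019, adjusted p = 0.184). With both clones together it was at 1.21 times the control (1.07 to 1.38, log2 change 0.28, SE 0.0819, adjusted p = 0.0655). Of 15 alternatives 3 called it: DESeq2 (adjusted p = 0.0333), edgeR without a filter on low counts (0.0493) and edgeR without clone 2 replicate 2 (0.0445). The other 12 did not, with an adjusted p of up to 0.472, among them edgeR without control replicate 1 (0.213) and without control replicate 2 (0.364). Sun2, the gene of the other broadly expressed SUN protein (chromosome 15, 79724068 to 79742536), had 9.15 and 9.59 CPM in clone 1, 12.4 and 11.0 CPM in clone 2, and 11.6 and 11.1 CPM in the control, from 255 to 397 reads a library. Clone 1 lay below the other libraries, and its log2 change of -0.27 did not pass (95% interval -0.56 to 0.0055, adjusted p = 0.182), nor did that of clone 2 against clone 1 (0.32, 95% interval 0.032 to 0.600, adjusted p = 0.189).

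The genes of B-type lamins did not pass in any comparison. Lmnb1 (Entrez 16906, chromosome 18, 56707813 to 56753424) had 493 and 443 CPM in clone 1, 465 and 449.7 CPM in clone 2, and 452 and 464 CPM in the control, and all groups overlapped. Its DKO level was 1.01 times the control with a 95% interval from 0.915 to 1.12 (edgeR adjusted p = 0.918), the second narrowest interval on the log2 scale after that of Tmpo. Lmnb2 (chromosome 10, 80901363 to 80918245) had 62.5 and 63.7 CPM in clone 1, 75.0 and 68.0 CPM in clone 2, and 67.4 and 61.9 CPM in the control. Its DKO level was 1.04 times the control (0.906 to 1.20, adjusted p = 0.756). For clone 2 against clone 1 the log2 change of Lmnb2 was 0.18 (95% interval 0.0055 to 0.355, edgeR adjusted p = 0.226).

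The LEM domain genes and Banf1 did not pass either. Emd, the gene of emerin (X chromosome, 74254674 to 74261563), had 48.1 and 40.9 CPM in clone 1, 38.3 and 36.0 CPM in clone 2, and 34.8 and 42.8 CPM in the control, so that the control libraries spanned most of the other values. Its DKO level was 1.05 times the control (95% interval 0.866 to 1.28, edgeR adjusted p = 0.790). For clone 2 against clone 1 the log2 change of Emd was -0.26 (95% interval -0.50 to -0.021, edgeR adjusted p = 0.201). Lemd3, the gene of the membrane protein MAN1, which binds SMAD proteins (chromosome 10, 120923411 to 120979396), had 32.7 and 31.9 CPM in clone 1, 32.6 and 37.0 CPM in clone 2, and 41.3 and 34.8 CPM in the control. It was at 0.882 times the control (0.757 to 1.03, adjusted p = 0.313). Clone 1 lay below the control for Lemd3, and a clone 2 library fell between the control values.

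Tmpo (chromosome 10, 91147571 to 91181752) had 366 and 368 CPM in clone 1, 377 and 382 CPM in clone 2, and 401 and 392 CPM in the control, and its groups did not overlap. The difference was small, at 0.942 times the control (95% interval 0.862 to 1.03, edgeR adjusted p = 0.411). Banf1 (chromosome 19, 5364633 to 5366876) had 24.8 and 22.0 CPM in clone 1, 23.2 and 22.4 CPM in clone 2, and 23.4 and 25.4 CPM in the control, and was at 0.947 times the control (0.820 to 1.09, adjusted p = 0.669). The annotated ends of Banf1 and Eif1ad overlap, and since the counted strand is not given, reads there cannot be assigned to either gene alone. For all 10 genes, an adjusted p over 0.05 leaves room for any change inside the interval, and the widest, that of Lmna with both clones together, ran from 0.683 to 1.19 times the control.

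**Figure D4:**
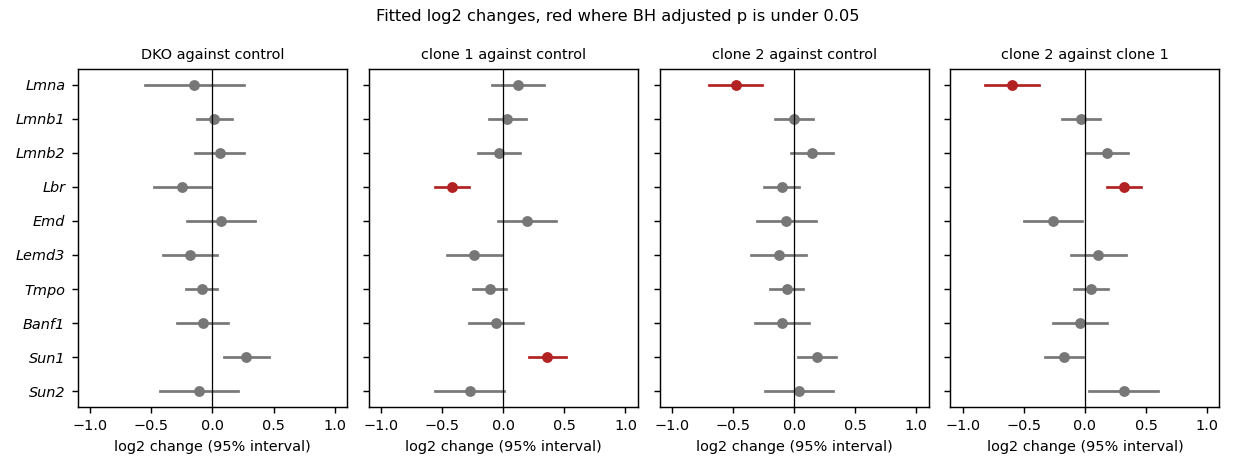
Fitted log2 changes of the 10 genes with 95% intervals (not adjusted for multiple tests) in DKO against control, in each clone against control and in clone 2 against clone 1, red where the edgeR adjusted p is under 0.05. Red points are Lbr and Sun1 in clone 1, Lmna in clone 2, and Lmna and Lbr between the clones.

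Of 60 further genes of the nuclear envelope, 57 were tested, and in DKO against control 4 rose, none fell and 53 did not pass. The 4 were all 4 of the tested list genes on chromosome 6, a chromosome on which 49.1% of all 709 tested genes were called higher. On the other chromosomes none of 53 listed genes passed in edgeR, DESeq2 or limma-voom. Of all genes there, edgeR called 2.84% higher and 3.74% lower. The medians were 0.60 for the 4 listed genes and 0.48 for all tested genes of chromosome 6, and 0.0090 and -0.0098 for other chromosomes.

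Among further inner membrane and lamina proteins, 1 of 10 tested genes rose, Tmem43, the gene of the emerin-binding membrane protein LUMA. Tmem43 had 74.3 and 77.7 CPM in clone 1, 59.7 and 59.4 CPM in clone 2, and 35.6 and 41.4 CPM in the control, with no overlap between the groups. It was at 1.76 times the control (95% interval 1.45 to 2.15, log2 change 0.82, SE 0.130, edgeR adjusted p = 0.0037). After centring on the chromosome median the log2 change was 0.35 (adjusted p = 0.185), and without control replicate 1 the adjusted p was 0.0853. The other 9, among them Lemd2, Nrm and Prr14, whose product links HP1 to the lamina, did not pass. Prr14 was at a log2 change of 0.15 (adjusted p = 0.549), and Plpp7, with 4 to 12 reads a library, was not tested.

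Nucleoporins, the subunits of the nuclear pore, had 3 of 30 genes called higher and 27 that did not pass, and their median log2 change was 0.020. Nup210, which codes for a membrane-spanning nucleoporin, had 135 and 130 CPM in clone 1, 144 and 142 CPM in clone 2, and 82.7 and 83.9 CPM in the control (log2 change 0.72, SE 0.0703, edgeR adjusted p = 7.7e-04). Nup205, an inner ring subunit, averaged 377 ± 9.59 CPM in DKO and 272 ± 16.9 CPM in control libraries (SD, n = 4 and 2, log2 change 0.47, edgeR adjusted p = 0.0018). Sec13, an outer ring subunit shared with vesicle coats, averaged 106 ± 9.40 CPM in DKO and 78.5 ± 0.227 CPM in control libraries (log2 change 0.43, edgeR adjusted p = 0.0132). After centring on the chromosome median, the log2 change was -0.00016 for Nup205 and -0.048 for Sec13, neither called, while that of Nup210 was 0.25 (adjusted p = 0.0438). Without control replicate 1 the adjusted p was 0.0525 for Nup205 and 0.131 for Sec13, and without control replicate 2 it was 0.130 for Sec13.

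LINC and outer membrane genes had no call in edgeR, DESeq2 or limma-voom among 6 tested in DKO against control, and none had an unadjusted p under 0.05. The nesprin gene Syne2 on chromosome 12, however, had 147 and 150.0 CPM in clone 1, 233 and 255 CPM in clone 2, and 152 and 133 CPM in the control. Syne2 rose in clone 2 to 1.71 times the control (95% interval 1.53 to 1.93, log2 change 0.78, SE 0.0775, edgeR adjusted p = 2.9e-05). In clone 1 it was at 1.04 times the control (0.927 to 1.17, adjusted p = 0.681), and clone 2 held 1.65 times the level of clone 1 (1.47 to 1.85, adjusted p = 2.2e-04). Sun5, a testis SUN gene, was at 0 reads in all libraries, and Sun3 at 0 in every library but control replicate 2, which had 3 reads. None of the 5 genes for lamin maturation, such as the protease gene Zmpste24 and the farnesyltransferase gene Fntb, and none of the 6 envelope assembly genes, such as Vrk1 and Chmp7, passed in edgeR, DESeq2 or limma-voom in any of the 4 comparisons. In DKO against control their medians were -0.014 and -0.025, with no unadjusted p under 0.05 in edgeR. Of the 6 assembly genes, 1 had an unadjusted p under 0.05 in clone 2 against control and 2 between the clones. Over all 14771 tested genes these 2 counts were 4280 and 3039.

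**Figure D5:**
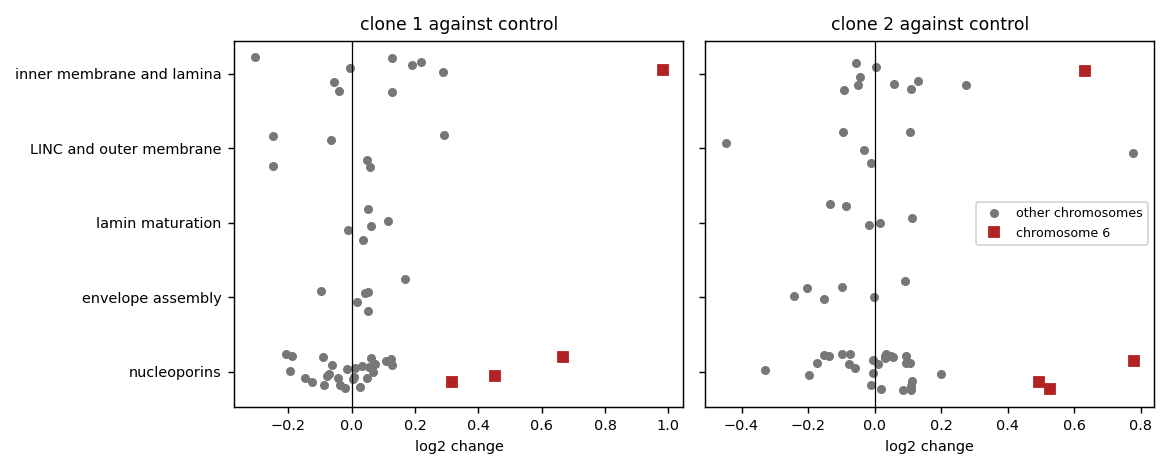
The log2 change of 57 further envelope genes against the F/F control in clone 1 (left) and clone 2 (right), 1 point a gene, with squares for genes on chromosome 6 and height within a list without meaning. The 4 genes of chromosome 6 lie at the high end of their lists, and in clone 2 Syne2 stands at 0.78.

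The tested genes whose log2 CPM followed Lmna most closely over the 6 libraries were Fnbp1l (Pearson r = 0.996), Safb2 (0.991) and Ttf1 (0.985), each lowest in clone 2. For Lbr they were Hunk (r = 0.9997), Tunar (0.998) and Mmd2 (0.996), each lowest in clone 1, with Tunar and Mmd2 at 0.215 to 1.24 CPM. These are the highest of the correlations with all tested genes over only 6 libraries, which share clone and depth, and are given as a description. Fnbp1l also lies on chromosome 3, the shifted chromosome of Lmna.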

How the data were processed

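The authors deposited raw read counts per Entrez gene for 6 RNA-seq libraries, with a gene width. Reads were aligned with STAR 2.5.0a to mm10 (GRCm38), per the submitters' processing notes. The counting tool, the annotation and the counted strand are not stated in the labels or notes. Of 24467 identifiers, 24437 matched a RefSeq table of GRCm38.p6, which gave symbols and positions. The 30 others took 0.389 to 1.62% of a library's reads, the most in control replicate 1. Replicates of a group differed by more than sampling noise, the control pair most (chi-square per gene 41.6, against 11.5 in clone 1 and 12.1 in clone 2). Every comparison with the control rests on that pair.

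Counts were fitted in R 4.3.3 with edgeR 4.0.16 after filterByExpr and TMM scaling (factors 0.992 to 1.01). DKO against control had genotype as its only term (4 residual degrees of freedom), and the clone contrasts came from a fit of 3 groups (3 degrees of freedom). Quasi-likelihood F tests were two-sided, with Benjamini-Hochberg adjustment over 14771 genes and a threshold of 0.05. SE were taken from the F statistic. P-values measure the spread between these libraries, which may be technical. Log2 correlations used a prior count of 2. Alternatives were other scalings and filters, DESeq2 1.42.0, limma-voom 3.58.1, a replicate block, chromosome centring, counts summed per clone and leaving out each library. The members, lists and the rule for named genes (all members, the 3 HP1 genes, called genes of each list, and the 3 genes closest to Lmna and to Lbr) were chosen with earlier results of these data known.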

Additional observations from a re-analysis of the deposited data

Results flagged for a closer look

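Lmna differed between the clones, with a log2 change of -0.60 for clone 2 against clone 1, and Lbr differed in the opposite direction, with 0.32. Among the further envelope genes, Tmem43 was lower in clone 2 than in clone 1 (log2 -0.35, edgeR adjusted p = 0.0285, and 0.0853 to 0.166 without any 1 of the DKO libraries), and Syne2 was higher (0.72). A DKO library stood apart from the other 3 for Lemd3, with 37.0 CPM in clone 2 replicate 2, and for Nup205 and Cbx3, with 391 and 490.5 CPM in clone 2 replicate 1. For 4 independent values, chance alone gives such a distance in about 1 of 20 groups, and 18 genes were examined. The 4 DKO libraries are 2 clones with 2 libraries each, and Nup205 and Cbx3 both lie on chromosome 6, so this rate is only a guide.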

How the results depend on the processing

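Of 570 recomputed log2 changes of the 10 genes, 544 kept their direction and side of the threshold. Lbr and Sun1 were called in clone 1 under all 14 alternatives. With genes centred on their chromosome's median, 332 genes rose in DKO (748 without centring), 731 in clone 1 and 765 in clone 2. Centring turned the direction of Lmnb1 (-0.043 in DKO, -0.024 in clone 1), Lmna (-0.16 in clone 1), Sec13 (-0.048 in DKO, -0.13 in clone 1), Nup205 (-0.00016 in DKO, -0.0091 in clone 2, -0.018 between clones) and Cbx3 (-0.0013 in clone 2, -0.0087 between clones); the cause was not tested. Library size scaling gave 0.012 for Lmnb1 in clone 2. Summing the 2 libraries of each clone (1 residual degree of freedom) left 0 genes called higher and 2 lower in DKO. Without a filter 644 genes were higher between the clones, and 1 member, Sun1, rose in DKO, as in DESeq2.

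Replicate numbers did not pair the libraries (correlations of deviations 0.026, 0.028 and -0.083); with the replicate block, 555 genes rose and 373 fell in DKO, and no call of a member changed.

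Leaving out 1 library at a time gave these lowest and highest counts of higher and of lower genes: 158 to 715 and 88 to 482 in DKO, 797 to 1198 and 495 to 853 in clone 1, 656 to 1197 and 467 to 1105 in clone 2, 115 to 377 and 155 to 557 between the clones. Members called ranged from 0 to 1 higher in DKO, 0 to 1 lower in clone 2, and 0 to 1 in each direction between the clones. The log2 changes that crossed 0 ranged in DKO from -0.016 to 0.037 for Lmnb1 and -0.068 to 0.23 for Emd. In clone 1 they ranged from -0.045 to 0.11 for Lmnb1, -0.090 to 0.030 for Lmnb2, -0.15 to 0.025 for Banf1 and -0.030 to 0.16 for Syne2. In clone 2 they ranged from -0.027 to 0.025 for Lmnb1, -0.21 to 0.093 for Emd, -0.24 to 0.0032 for Lemd3 and -0.047 to 0.13 for Sun2. Between the clones they ranged from -0.11 to 0.044 for Lmnb1, -0.12 to 0.052 for Banf1, -0.072 to 0.0091 for Cbx5, -0.14 to 0.025 for Cbx1 and -0.014 to 0.11 for Cbx3. A lone library left in a group is assumed to vary like the others.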
